A study of Mus musculus with 18 samples.

Results

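Peptides of the cell's own proteins are shown to T cells on major histocompatibility complex (MHC) class I molecules, and 10 genes of that route are described here: Tap1, Tap2, Tapbp, Psmb8, Psmb9, Psmb10, B2m, Cd74, H2-K1 and H2-D1. They were taken by name, with all 22 probes that the array annotation maps to them, out of 45121 probes and 19030 genes with a probe of their own on the array. Of the 22 probes, 19 passed the filter on dim signal, as did 26407 probes of the whole array, and each of the 10 genes kept at least 1 probe. The cells were mouse embryonic fibroblasts from E10.0 embryos on a mixed BL6/129/Sv background, immortalized by the 3T3 procedure of serial passage. The KO cells carried jnk1-/-jnk2-/- and so lacked the stress-activated kinases JNK1 and JNK2, and the WT cells carried both kinases. Both genotypes grew on culture inserts in one medium with serum, insulin, hydrocortisone, cholera toxin and epidermal growth factor. RNA was taken before co-culture (day 0) or after inserts had shared the medium with differentiating primary human epidermal keratinocytes, and the inserts were renewed every second day, giving days 2, 4 and 6. There were 18 single-colour Illumina bead arrays: 1 KO and 1 WT array at day 0, 2 and 2 at day 2, 2 and 2 at day 4, and 4 and 4 at day 6, each holding RNA of 1, 2 or 3 pooled inserts. The labels name no more than 1 line for each genotype, so p-values here reflect variation among inserts only, and a difference of genotype cannot be told apart from a difference between the lines.

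In this pathway, proteasomes cut proteins into peptides. In cells exposed to interferon, the subunits Psmb8, Psmb9 and Psmb10 replace constitutive catalytic subunits, and the resulting immunoproteasome yields more peptides with ends that fit class I molecules. The transporter made of Tap1 and Tap2 carries peptides into the endoplasmic reticulum, where tapasin (Tapbp) holds an empty class I molecule beside it. A class I molecule consists of a heavy chain, such as H2-K1 or H2-D1, and the light chain beta-2 microglobulin (B2m). Cd74, the invariant chain, belongs to the sister route: it chaperones MHC class II molecules and is made mainly by professional antigen-presenting cells. Fibroblasts ordinarily make class I molecules at a modest level and raise them with interferon.

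Signals are given as normalized log2 values, where 1 unit is a factor of 2, and an array is said to detect a probe where its detection p-value, the chance of such a signal from background, was under 0.01. Values of different probes were not set against each other, since each probe has its own brightness. For a gene with several probes, the one with the highest mean signal (the leading probe) is read first. On the arrays, the Jnk2 gene Mapk9 lay at 4.51 to 5.60 in KO cells, against 10.07 to 10.49 in WT cells, without overlap. The Jnk1 gene Mapk8 lay at 5.71 to 6.36 in KO cells and 5.44 to 6.47 in WT cells; whether its probe lies in the deleted part was not tested. The deposited detection p-values were of 2 kinds, and by that kind, though no label names it, the arrays were taken as 2 processing sets. The second set held 6 arrays, replicates 2, 3 and 4 of day 6 in both genotypes, at a mean intensity of 581 to 653, and the first the other 12, at 392 to 482. Within day 6, WT replicate 2 was the lowest of the 4 WT arrays for 10 of 10 leading probes. KO replicate 2 was the highest of the 4 KO arrays for 8 of the 10. That same KO array had 9.39 for Dlk1, a gene at 4.18 to 4.42 on the other 8 KO arrays and at 13.76 to 14.69 in WT cells. Member calls at day 6 that changed on leaving out either array are given with and without it. Genes outside the members are given over all arrays only.

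Comparing the genotypes at day 6 asks which steps of the pathway differed once the JNK kinases were missing. At day 6, 11 of the 19 member probes were higher in KO cells and 1 was lower, after limma's test with Benjamini-Hochberg adjustment over all 26407 probes at a threshold of 0.05. Over all probes, 13.9% were higher and 12.9% were lower in the same comparison. By leading probe, 7 of the 10 genes were higher and 0 were lower. The median log2 difference of the member probes was 1.01, against 0.02 over all probes. The higher genes covered the transporter subunit Tap2, the loading factor Tapbp, the proteasome subunits Psmb8 and Psmb10, both heavy chains and Cd74. The 3 leading probes that did not pass were those of Psmb9, Tap1 and B2m.

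**Figure D1:**
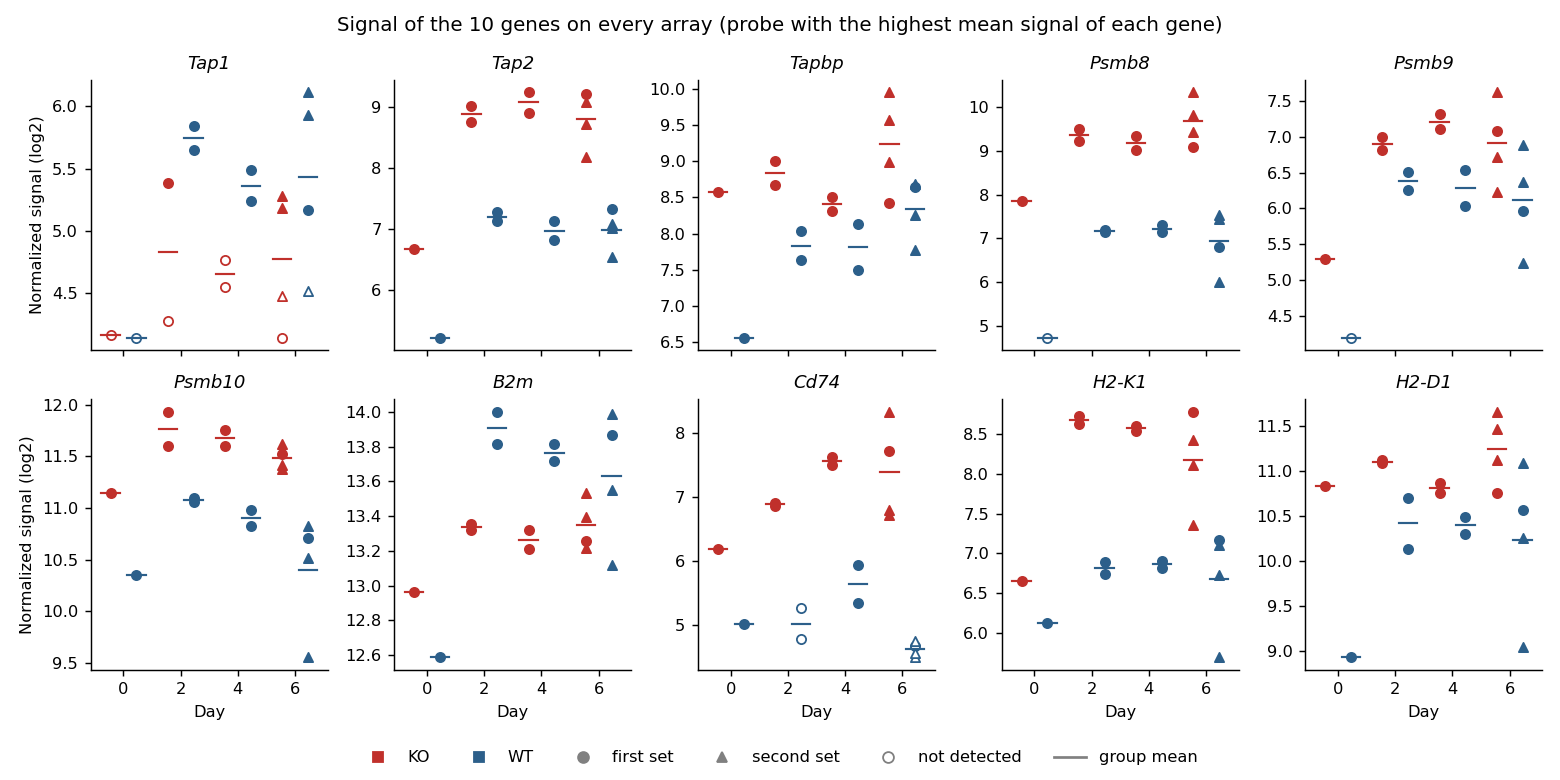
Normalized signal (log2, vertical axis, a separate range for each gene) against day (horizontal axis) for the leading probe of each gene, with KO points left of WT points, circles for the first and triangles for the second processing set, open symbols where the probe was not detected, and lines at group means. KO points lie above all WT points of days 2 to 6 for Tap2, Psmb8, Psmb10, Cd74 and H2-K1, while for B2m the KO points of days 2 and 4 lie below the WT points and those of day 6 between WT points.

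Peptide transport divided between the transporter's subunits. Tap2, at day 6, had 9.20, 9.08, 8.72 and 8.17 in KO cells, against 7.32, 6.55, 7.01 and 7.08 in WT cells. The lowest KO array lay above the highest WT array. The difference was 1.80 ± 0.21 (SE, n = 4 arrays each; limma, adjusted p = 1.34e-06), which is 3.49-fold. At day 2, Tap2 had 9.002 and 8.743 in KO cells, against 7.27 and 7.13 in WT cells, and at day 4 it had 9.24 and 8.90 in KO cells, against 6.82 and 7.13 in WT cells. These differences, 1.67 ± 0.30 at day 2 (adjusted p = 0.000359) and 2.10 ± 0.30 at day 4 (adjusted p = 3.11e-05), also passed (limma, n = 2 arrays each).

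The partner subunit Tap1 did not share this pattern. Its single probe was dim, detected on 3 of 9 KO arrays and 7 of 9 WT arrays. It had 4.14, 5.28, 5.18 and 4.48 in KO cells at day 6, against 5.17, 4.51, 5.93 and 6.12 in WT cells. The groups overlapped, and the difference of -0.66 ± 0.33 did not pass (limma, adjusted p = 0.171, n = 4 arrays each). At day 2 it had 5.38 and 4.28 in KO cells, against 5.84 and 5.65 in WT cells. At day 4 it had 4.76 and 4.55 in KO cells, both below detection, against 5.24 and 5.49 in WT cells. Over the mean of days 2, 4 and 6, Tap1 was lower in KO cells by a fitted difference of -0.76 ± 0.25 (limma, adjusted p = 0.0201, n = 8 arrays each), or at least 1.57-fold lower when undetected values were raised to the lowest detected signal. This call was lost without KO replicate 2 of day 2 (-0.58, adjusted p = 0.103) and, more narrowly, without KO replicate 2 of day 4 (adjusted p = 0.0572), WT replicate 1 of day 2 (adjusted p = 0.0542) or WT replicate 2 of day 4 (adjusted p = 0.0575). It was also lost with scaling to one median (-0.70, adjusted p = 0.0881) or without the filter on detection (adjusted p = 0.0523). At day 6 the difference passed once WT replicate 2 was left out (-0.97, adjusted p = 0.0336), and was -0.43 (adjusted p = 0.464) without WT replicate 4.

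Tap1 lies within a cluster of 4 members on mouse chromosome 17: Psmb9, Tap1, Psmb8 and Tap2 occupy 34292 bases, from 34182030 to 34216321 (GRCm38.p6, RefSeq). Psmb9 runs on the minus strand and Tap1 on the plus strand, and their annotated start sites face away from each other, 226 bases apart. The promoter windows of this pair, 250 bases before to 50 bases after each start site, thus share 275 bases, while over the mean of days 2, 4 and 6 Tap1 was lower and Psmb9 higher in KO cells. Both of these calls were lost with scaling to one median and on leaving out certain single arrays. The shared stretch is shown because both genes have it in their promoter windows. Capitals mark matches, on either strand, to any of the motifs searched; the CCAAT box (CCAAT) begins at base -222 from the Tap1 start and the GC box (GGGCGG) at base -176, on the opposite strand.
Tap1 promoter, chr17:34187306-34187605, plus strand, GRCm38.p6: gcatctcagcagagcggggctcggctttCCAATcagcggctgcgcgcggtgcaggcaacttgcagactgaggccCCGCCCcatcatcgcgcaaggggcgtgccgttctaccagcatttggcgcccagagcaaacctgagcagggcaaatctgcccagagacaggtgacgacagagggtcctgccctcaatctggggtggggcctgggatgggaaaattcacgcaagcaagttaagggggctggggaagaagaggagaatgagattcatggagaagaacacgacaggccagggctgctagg

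Of the loading step, tapasin was higher in KO cells at day 6. The leading Tapbp probe had 8.42, 9.96, 9.57 and 8.99 in KO cells, against 8.65, 7.77, 8.25 and 8.68 in WT cells. The groups overlapped in one place: KO replicate 1 lay below WT replicates 1 and 4. The difference was 0.89 ± 0.27 (limma, adjusted p = 0.0156, n = 4 arrays each). The second Tapbp probe, whose annotation names another transcript, differed by 0.63 ± 0.28 and did not pass (adjusted p = 0.117). Within the first processing set the leading probe's difference was -0.23 ± 0.31 (adjusted p = 0.736, 1 array each, with the spread taken from the other groups), and within the second set it was 1.27 ± 0.28 (adjusted p = 0.00954, 3 arrays each). The call was lost without KO replicate 2 (0.65, adjusted p = 0.0691), KO replicate 3 (0.78, adjusted p = 0.0573) or WT replicate 2 (0.71, adjusted p = 0.0702).

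Among the immunoproteasome subunits, Psmb8 had the largest difference by leading probe, though not on its second probe. Psmb8 had 9.09, 10.35, 9.82 and 9.44 in KO cells at day 6, against 6.81, 6.00, 7.45 and 7.54 in WT cells. The lowest KO array lay above the highest WT array. The difference was 2.73 ± 0.28, or 6.62-fold (limma, adjusted p = 2.24e-07, n = 4 arrays each). It was 2.19 ± 0.40 at day 2 (adjusted p = 0.000417) and 1.96 ± 0.40 at day 4 (adjusted p = 0.00129), with n = 2 arrays each. The dimmer second Psmb8 probe gave 1.01 ± 0.21 at day 6 (limma, adjusted p = 0.000805), a smaller difference in the same direction. In the first set alone, with 1 array each, its difference was 0.48. At day 2 this probe gave 1.66 ± 0.29 and passed (adjusted p = 0.000307). At day 4 it gave 0.64 ± 0.29 and did not pass (adjusted p = 0.152).

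Psmb10 was higher on both of its probes at day 6. Its leading probe had 11.52, 11.62, 11.42 and 11.38 in KO cells at day 6, against 10.71, 9.55, 10.52 and 10.83 in WT cells. KO arrays lay close together, and WT replicate 2 stood furthest from them. The differences were 1.08 ± 0.19 (limma, adjusted p = 0.000174) and 1.13 ± 0.22 (adjusted p = 0.000432) on the leading and the second probe, n = 4 arrays each. Without WT replicate 2 the leading probe's difference was 0.80 (adjusted p = 3.94e-05). On the earlier days the leading probe did not pass, with 0.68 ± 0.27 at day 2 (limma, adjusted p = 0.0891) and 0.77 ± 0.27 at day 4 (adjusted p = 0.0540).

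Psmb9, on its single probe, had 7.07, 7.62, 6.72 and 6.23 in KO cells at day 6, against 5.97, 5.23, 6.37 and 6.89 in WT cells. The groups overlapped, and the difference of 0.80 ± 0.31 missed the threshold (limma, adjusted p = 0.0638, n = 4 arrays each). It passed without KO replicate 4 (1.03, adjusted p = 0.0189) or WT replicate 4 (1.06, adjusted p = 0.0152), and was smaller without KO replicate 2 (0.56, adjusted p = 0.226) or WT replicate 2 (0.50, adjusted p = 0.264). It passed in neither set alone (1.11, adjusted p = 0.0776, in the first and 0.70, adjusted p = 0.324, in the second). Over the mean of days 2, 4 and 6 Psmb9 was higher in KO cells by 0.75 ± 0.23 (limma, adjusted p = 0.0139, n = 8 arrays each), a call lost without WT replicate 1 of day 4 (adjusted p = 0.0541) and with each array scaled to one median (0.59, adjusted p = 0.142).

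The light chain B2m differed the other way. Its leading probe had 13.26, 13.53, 13.40 and 13.22 in KO cells at day 6, against 13.86, 13.12, 13.55 and 13.99 in WT cells. WT replicate 2 was the lowest of all 8 arrays, and each KO array lay below the 3 other WT arrays. The difference of -0.28 ± 0.14 did not pass (limma, adjusted p = 0.171, n = 4 arrays each), but it did without WT replicate 2 (-0.45, adjusted p = 0.00639), while without WT replicate 4 it was -0.16 (adjusted p = 0.518). It was -0.61 within the first set (adjusted p = 0.0101) and -0.17 within the second (adjusted p = 0.605). The second probe was lower in KO cells by -0.35 ± 0.12 (adjusted p = 0.0393), a call that was lost on leaving out any 1 of KO replicates 1, 3 and 4 or WT replicates 1, 3 and 4 (adjusted p of 0.0544 to 0.168).

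On the earlier days the leading B2m probe did not pass (adjusted p = 0.0503 at day 2 and 0.0930 at day 4). At day 2 the leading probe had 13.35 and 13.32 in KO cells, against 14.002 and 13.818 in WT cells. At day 4 it had 13.21 and 13.32 in KO cells, against 13.82 and 13.71 in WT cells. Over the mean of days 2, 4 and 6 it was lower in KO cells by -0.45 ± 0.10 (limma, adjusted p = 0.00166, n = 8 arrays each), and the second probe by -0.42 ± 0.09 (adjusted p = 0.000911). Both of these calls held in each of the alternatives fitted, with adjusted p of at most 0.0156.

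Both heavy chains were higher in KO cells at day 6. The leading H2-K1 probe had 8.78, 8.43, 8.11 and 7.36 in KO cells at day 6, against 7.17, 5.70, 6.73 and 7.11 in WT cells. There was no overlap. The difference was 1.49 ± 0.29 (limma, adjusted p = 0.00044, n = 4 arrays each), with 1.86 ± 0.41 at day 2 (adjusted p = 0.0024) and 1.71 ± 0.41 at day 4 (adjusted p = 0.00505). The second H2-K1 probe was near background, detected on 5 of 9 KO and 5 of 9 WT arrays, and followed the leading probe poorly (r = 0.18 over 18 arrays). It differed by 0.62 ± 0.31 at day 6 and did not pass (adjusted p = 0.17).

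H2-D1 was less separated. Its leading probe had 10.75, 11.66, 11.47 and 11.11 in KO cells at day 6, against 10.56, 9.03, 10.25 and 11.08 in WT cells. WT replicate 4 lay above KO replicate 1. The difference was 1.01 ± 0.29 (limma, adjusted p = 0.0118, n = 4 arrays each), and the second probe, which ran parallel to the leading one (r = 0.98 over 18 arrays), gave 1.15 ± 0.28 (adjusted p = 0.0035). Without WT replicate 2 the leading probe's difference was 0.61 (adjusted p = 0.0351). It was 0.19 ± 0.22 within the first processing set (adjusted p = 0.674) and 1.29 ± 0.42 within the second (adjusted p = 0.0505). The 2 dim H2-D1 probes did not pass at day 6. On the earlier days the leading probe did not pass, with 0.69 ± 0.41 at day 2 (limma, adjusted p = 0.298) and 0.41 ± 0.41 at day 4 (adjusted p = 0.589). Class I heavy chain genes resemble each other closely, and binding of related transcripts to these probes was not tested.

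The promoter windows of the class I chains are shown because the H2-K1 and H2-D1 windows resemble each other over most of their length, and the B2m window is that of the chain they pair with. Over 239 aligned bases, 211 were identical between the H2-K1 and H2-D1 windows (88.3%). Both hold the same NF-kB site, followed by a pair of CCAAT boxes, the first in reverse. In the B2m window the capitals mark, in order, an interferon-response core (ISRE), an NF-kB site and a reversed CCAAT box.
H2-K1 promoter, chr17:34000298-34000597, minus strand, GRCm38.p6: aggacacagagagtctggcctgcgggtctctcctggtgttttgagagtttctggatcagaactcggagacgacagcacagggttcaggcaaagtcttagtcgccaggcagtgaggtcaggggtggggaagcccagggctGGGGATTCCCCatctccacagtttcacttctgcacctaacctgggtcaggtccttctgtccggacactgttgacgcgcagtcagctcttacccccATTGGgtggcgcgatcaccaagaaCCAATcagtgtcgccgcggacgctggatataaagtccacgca
H2-D1 promoter, chr17:35262844-35263143, plus strand, GRCm38.p6: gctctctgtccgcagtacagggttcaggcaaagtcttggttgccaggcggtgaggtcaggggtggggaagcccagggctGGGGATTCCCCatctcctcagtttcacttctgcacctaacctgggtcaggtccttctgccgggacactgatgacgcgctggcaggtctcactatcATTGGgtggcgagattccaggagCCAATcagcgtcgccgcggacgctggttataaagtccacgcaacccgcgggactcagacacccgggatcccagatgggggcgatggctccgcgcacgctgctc
B2m promoter, chr2:122147437-122147736, plus strand, GRCm38.p6: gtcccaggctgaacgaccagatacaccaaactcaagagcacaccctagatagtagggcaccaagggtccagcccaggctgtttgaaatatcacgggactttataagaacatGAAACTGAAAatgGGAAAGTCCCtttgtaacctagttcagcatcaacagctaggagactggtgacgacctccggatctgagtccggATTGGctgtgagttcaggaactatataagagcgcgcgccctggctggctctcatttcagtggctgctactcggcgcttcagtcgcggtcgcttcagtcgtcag

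RefSeq promoter windows were read for 8 of the 10 members, all but Tap2 and Cd74. The NF-kB site, searched by its degenerate consensus, was matched in 3 of the 8 windows (4.51% of all 32851 windows), and CCAAT in 6 of 8 (37.4% of all). The ISRE core was matched in 1 of 8, that of B2m (3.44% of all), and the GAS element (TTCNNNGAA), bound by interferon-activated STAT dimers, in 1 of 8, that of Psmb8 (8.30% of all). The AP-1 site (TGANTCA), which the JNK substrate Jun binds, was matched in 0 of 8 (7.81% of all), as were the CRE (TGACGTCA, 1.79% of all) and its half-site (TGACGT, 7.51% of all). The GC box was matched in 3 of 8 (35.7% of all). The 8 windows are not independent: the same CCAAT box and GC box, in the shared stretch, were counted for both Tap1 and Psmb9. The closely alike windows of H2-K1 and H2-D1 were also counted separately. All motifs were searched on both strands, a CRE always holds the half-site, and a match is a string of letters, not evidence of binding. Elements that depart from the searched letters were not counted, so a window without a match, such as those of H2-K1 and H2-D1 for the ISRE core, may still hold a variant of it.

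Cd74 had a fitted difference of 2.77 ± 0.29 at day 6, close to that of Psmb8. Without KO replicate 2 the 2 genes differed by 2.46 and 2.50. Its leading probe had 7.71, 8.33, 6.71 and 6.79 in KO cells, against 4.66, 4.49, 4.56 and 4.75 in WT cells. The WT values were all below detection. By group means of this probe, Cd74 was at least 6.75-fold higher in KO cells when undetected values were raised to the lowest detected signal. The fitted difference, not this bound, was tested and passed (limma, adjusted p = 2.71e-07, n = 4 arrays each). At day 2 the leading probe had 6.90 and 6.86 in KO cells, against undetected values of 5.25 and 4.77 in WT cells. These WT values lay above the lowest detected signals of their arrays (4.66 and 4.72), so raising gave no bound below the fit. The fitted difference was 1.87 ± 0.41, or 3.65-fold (limma, adjusted p = 0.00239). At day 4 the leading probe had 7.49 and 7.62 in KO cells, against 5.33 and 5.93, both detected, in WT cells. That difference was 1.93 ± 0.41 (adjusted p = 0.00194). The second Cd74 probe, annotated to another transcript, gave 2.67 ± 0.33 at day 6 (adjusted p = 2.45e-06) and passed at day 2 and day 4 as well, though at day 2 not with scaling to one median (adjusted p = 0.122), in the authors' deposited log2 values (adjusted p = 0.0694) or without any 1 of 3 arrays (KO replicates 1 and 2 and WT replicate 2, adjusted p of 0.0507 to 0.166).

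Of the class II chains that Cd74 chaperones, H2-Aa, H2-Ab1 and H2-Eb1 did not pass the filter on dim signal, while H2-Eb2 did. Of 12 genes of the class II pathway, the master regulator Ciita and the chains H2-Oa and H2-Ob also had no probe past the filter. The other 6 were tested at day 6, and 0 were higher and 3 lower in KO cells, with a median log2 difference of -1.05. Over all probes, 13.9% were higher and 12.9% lower. H2-Eb2, Ctss and Ifi30 did not pass the test. The peptide exchange factor H2-DM, which edits class II peptides, was lower in KO cells: H2-DMa by -1.88 ± 0.22 (limma, adjusted p = 1.57e-06), H2-DMb1 by -2.86 ± 0.28 (adjusted p = 9.36e-08) and H2-DMb2, undetected in KO cells, at least 6.94-fold (adjusted p = 3.87e-10), all at day 6 with n = 4 arrays each. H2-DMb1 and H2-DMb2 are near-identical copies, and their probes may share transcripts. Of markers of macrophages and dendritic cells, which make Cd74, 4 of 12 were tested and 0 passed the test at day 6. Ptprc, Itgam, Itgax, Lyz2, Tyrobp, Fcer1g and Laptm5 stayed below the filter. The summed linear signal of the 4 tested ones was 93.0 to 141 in KO cells and 95.3 to 161 in WT cells.

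**Figure D2:**
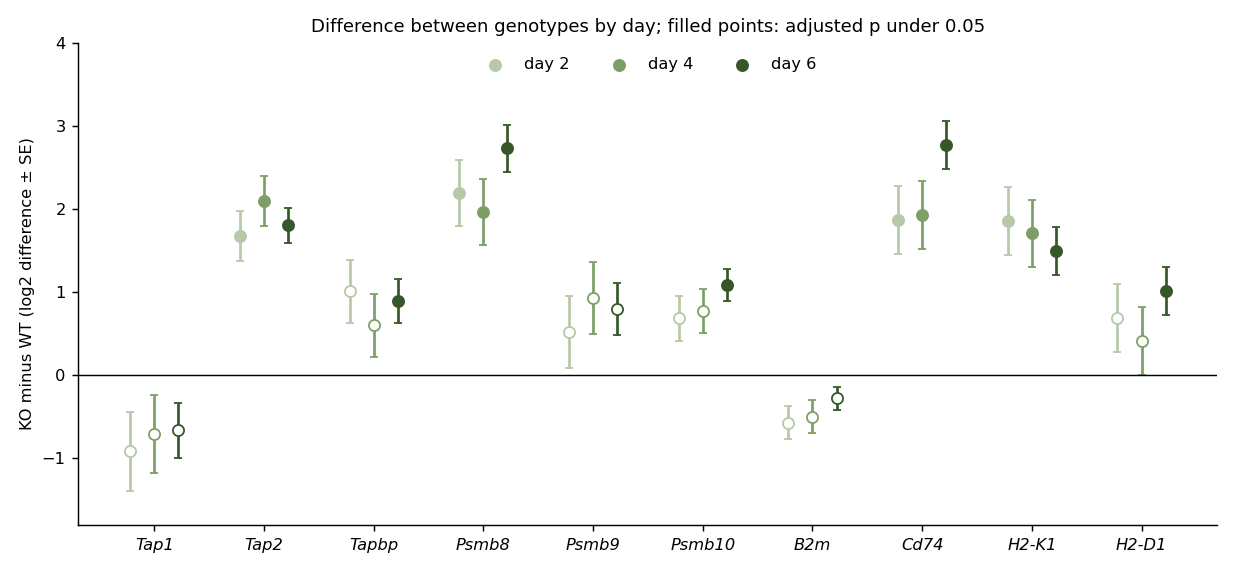
Difference between genotypes, KO minus WT (log2, vertical axis), of the leading probe of each gene (horizontal axis) at days 2, 4 and 6, with standard errors from the limma fit and filled points where the adjusted p was under 0.05. Tap2, Psmb8, Cd74 and H2-K1 passed on all 3 days, and Tap1 and B2m lie below 0 on all 3 days. The Cd74 points of days 2 and 6 and the Tap1 point of day 4 are fitted values against a genotype without detected signal.

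The fitted genotype difference of each leading probe had one direction on days 2, 4 and 6. At day 2, 6 member probes were higher and 1 was lower in KO cells, against 9.47% higher and 9.18% lower of all probes. At day 4, 5 were higher and 0 were lower, against 9.02% and 8.66% of all probes. Tap2, Psmb8, Cd74 and H2-K1 passed on their leading probe on each of the 3 days. Over the mean of days 2, 4 and 6, 12 member probes were higher and 3 were lower, against 19.2% and 17.3% of all probes. By leading probe that made 8 genes higher, and 2, Tap1 and B2m, lower. Of these, Tapbp (0.63, adjusted p = 0.100) and H2-D1 (0.53, adjusted p = 0.140) lost the call with scaling to one median, and H2-D1 also without WT replicate 2 of day 2 (0.61, adjusted p = 0.0589). Psmb9 and Tap1, as given above, lost their calls with scaling to one median too, and without certain single arrays. With each array scaled to one median in place of quantiles, the probes of the whole array that were higher and lower numbered 654 and 1456 at day 2 (2502 and 2425 with quantiles), 722 and 1200 at day 4 (2381 and 2286 with quantiles), and 2354 and 3881 over the mean (5081 and 4579 with quantiles).

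The test of whether the difference itself changed from day 2 to day 6 found 0 of 19 member probes at the threshold (limma; 0 at an unadjusted p under 0.05), and 0.0% of all probes passed it. Cd74 came nearest on a leading probe, its difference being larger at day 6 by 0.90 ± 0.50 (adjusted p = 1.00). Day 6 minus day 2 within KO cells also gave 0 of 19 (0.0% of all probes passed; 1 member probe had an unadjusted p under 0.05). The same within WT cells gave 0 of 19 (0.0379% of all; 2 at an unadjusted p under 0.05, both probes of Psmb10). Day 6 and the second processing set largely coincide, and without replicate 1 of day 6 the 2 time comparisons still gave 0 member probes while 2943 probes of the whole array passed in KO cells and 1529 in WT cells.

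The change from before to during co-culture could be read for both genotypes together, since day 0 had 1 array of each. Day 2 minus day 0, in the mean of the genotypes, was higher on 6 of 19 member probes and lower on 0, while 5.02% of all probes were higher. The higher genes were Tap2, Psmb8, Psmb9, B2m and H2-K1. Tap2 had 9.002 and 8.743 at day 2 and 6.67 at day 0 in KO cells. In WT cells it had 7.27 and 7.13 at day 2 and 5.22 at day 0. The mean difference between the days was 2.09 ± 0.26 (limma, adjusted p = 5.38e-05). With scaling to one median, 1 of the 6 probes passed, that of Tap2. The spread of a day 0 group, with its 1 array, was taken from the other groups, and the day and the renewal of inserts cannot be told apart from co-culture itself.

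Within each genotype, day 0 had 1 array, so its spread was not measured and was again taken from the other groups. In these contrasts, added after the values had been seen, 2 of 19 member probes were higher at day 2 than at day 0 in KO cells (2.65% of all probes), those of Tap2 and H2-K1. In WT cells 5 of 19 were higher (1.79% of all), those of Tap2, Psmb8, Psmb9 and both of B2m. B2m had 13.35 and 13.32 at day 2 and 12.96 at day 0 in KO cells, a difference of 0.38 ± 0.24 (limma, adjusted p = 0.427). In WT cells it had 14.002 and 13.818 at day 2 and 12.59 at day 0, a difference of 1.32 ± 0.24 (adjusted p = 0.0039). KO thus lay below WT at day 2 and above it at day 0. The difference of these responses, -0.95 ± 0.34, did not pass over all probes (adjusted p = 0.381, unadjusted p = 0.0125), and no member probe did (0 of 19, against 0.189% of all probes; 2 at an unadjusted p under 0.05).

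At day 0, with 1 array each and no test, every leading probe that was detected read higher in KO cells. Psmb8 had 7.86 in KO cells and an undetected 4.72 in WT cells. H2-D1 had 10.83 in KO cells and 8.92 in WT cells, and Tapbp had 8.57 in KO cells and 6.55 in WT cells. Psmb9 had 5.29 in KO cells and an undetected 4.19 in WT cells. Tap1 was undetected in both, at 4.16 in KO cells and 4.14 in WT cells.

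**Figure D3:**
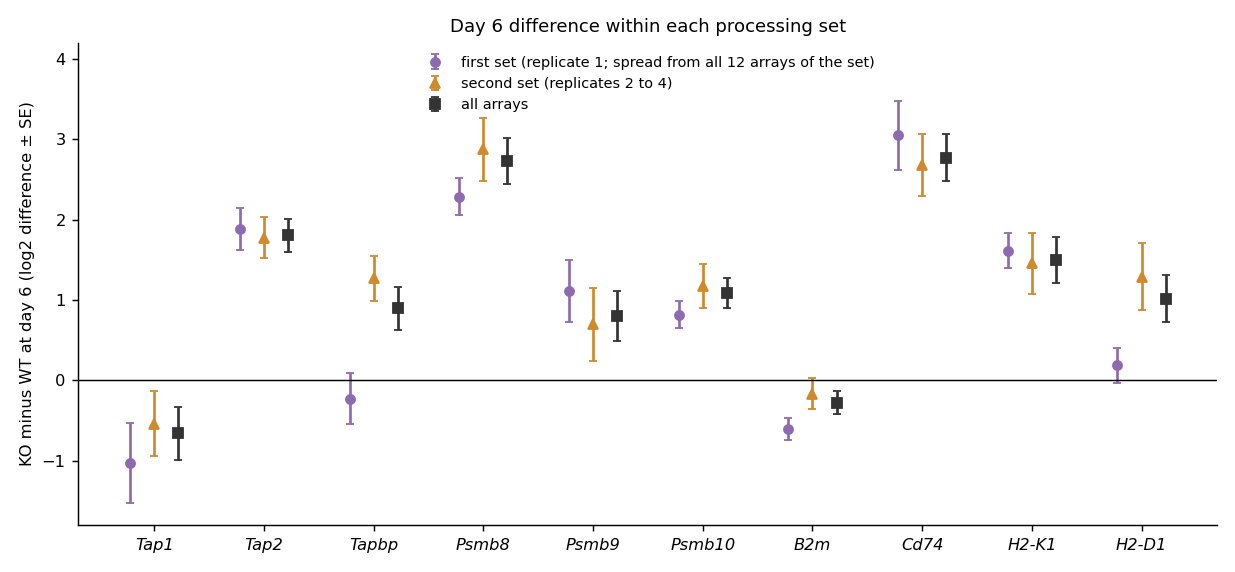
Difference between genotypes at day 6, KO minus WT (log2 ± SE, vertical axis), of each leading probe, within the first processing set (circles, replicate 1), within the second (triangles, replicates 2 to 4) and over all arrays (squares). Tapbp lies at -0.23 in the first set and 1.27 in the second, and H2-D1 at 0.19 and 1.29, while the other genes have the same sign in both sets.

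Across these settings, 5 genes passed on their leading probe at day 6 in each of the 19 alternatives fitted (limma, adjusted p of at most 0.0208). They were Tap2, Psmb8, Psmb10, Cd74 and H2-K1. The share of all probes that passed in every alternative was not counted, and 13.9% were higher over all arrays. Among these alternatives, the first set alone had 1 day 6 array of each genotype, with the spread taken from the other groups. The leading probes of Tapbp and H2-D1 passed over all arrays but not in the first set alone, nor with scaling to one median (0.75, adjusted p = 0.193, and 0.89, adjusted p = 0.0736). The second H2-D1 probe did pass in the first set alone (0.77 ± 0.18, adjusted p = 0.0125), and not in the second (1.27 ± 0.43, adjusted p = 0.0587).

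Other genes of the pathway were read by the same probe rule, from lists of 10 to 22 genes by role. Beside their counts at day 6 stand the 13.9% of all probes that were higher and the 12.9% that were lower. Of the peptide loading and trimming genes, 7 were tested, 2 were higher and 1 was lower in KO cells at day 6, with a median log2 difference of 0.24. Tapbpl, a tapasin relative that edits peptides, was higher by 0.71 ± 0.17 (limma, adjusted p = 0.00304, n = 4 arrays each). The trimming peptidase Erap1 was at least 1.23-fold higher (adjusted p = 0.0345), and the translocon subunit Sec61a1 lower by -0.40 ± 0.12 (adjusted p = 0.0176). Calr and Pdia3, chaperones of the loading complex, differed by 0.24 and 0.17 and did not pass; these 2 were named after their values had been seen. Of 14 other class I and class I-like heavy chains tested, 2 were higher and 1 was lower, near the shares of all probes. H2-M3, which presents formylated peptides, was higher by 1.56 ± 0.23 (adjusted p = 2.12e-05) and the non-classical chain H2-M2 by 1.87 ± 0.34 (adjusted p = 0.000232). Cd1d1, which presents lipids and pairs with B2m, was lower by -2.65 ± 0.20 (adjusted p = 3.88e-09).

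The proteasome differed in both its core and its caps. Psmb5, the constitutive subunit that Psmb8 replaces, had 8.78, 9.13, 9.55 and 9.61 in KO cells at day 6, against 10.08, 10.68, 10.89 and 10.60 in WT cells. It was lower in KO cells by -1.29 ± 0.20 (limma, adjusted p = 3.17e-05, n = 4 arrays each). It was the 1 lower gene among 11 constitutive core genes tested, of which 8 were higher, with a median of 0.28. The others named by size of difference, all structural or catalytic core subunits, are Psma7 (0.85 ± 0.11, adjusted p = 4.18e-06), Psmb2 (0.57 ± 0.14, adjusted p = 0.0035) and Psma4 (0.50 ± 0.10, adjusted p = 0.000796). Psmb6 and Psmb7, the counterparts of Psmb9 and Psmb10, were looked up after the values had been seen and were higher by 0.28 ± 0.08 (adjusted p = 0.0188) and 0.32 ± 0.11 (adjusted p = 0.0304).

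Both interferon-inducible subunits of the proteasome activator PA28 were higher in KO cells. Psme2 had 9.79, 9.83, 9.80 and 9.73 in KO cells at day 6, against 8.27, 7.53, 8.41 and 8.25 in WT cells, a difference of 1.67 ± 0.16 (limma, adjusted p = 6.87e-08, n = 4 arrays each). Psme1 had 11.91, 12.33, 12.11 and 11.83 in KO cells, against 10.68, 10.10, 10.94 and 11.03 in WT cells, a difference of 1.35 ± 0.16 (adjusted p = 1.49e-06). The groups did not overlap for either gene. Of 8 activator and assembly genes tested, 3 were higher and 0 were lower, the third being the assembly chaperone Psmg3 (0.37 ± 0.13, adjusted p = 0.0383), with a median of 0.17.

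**Figure D4:**
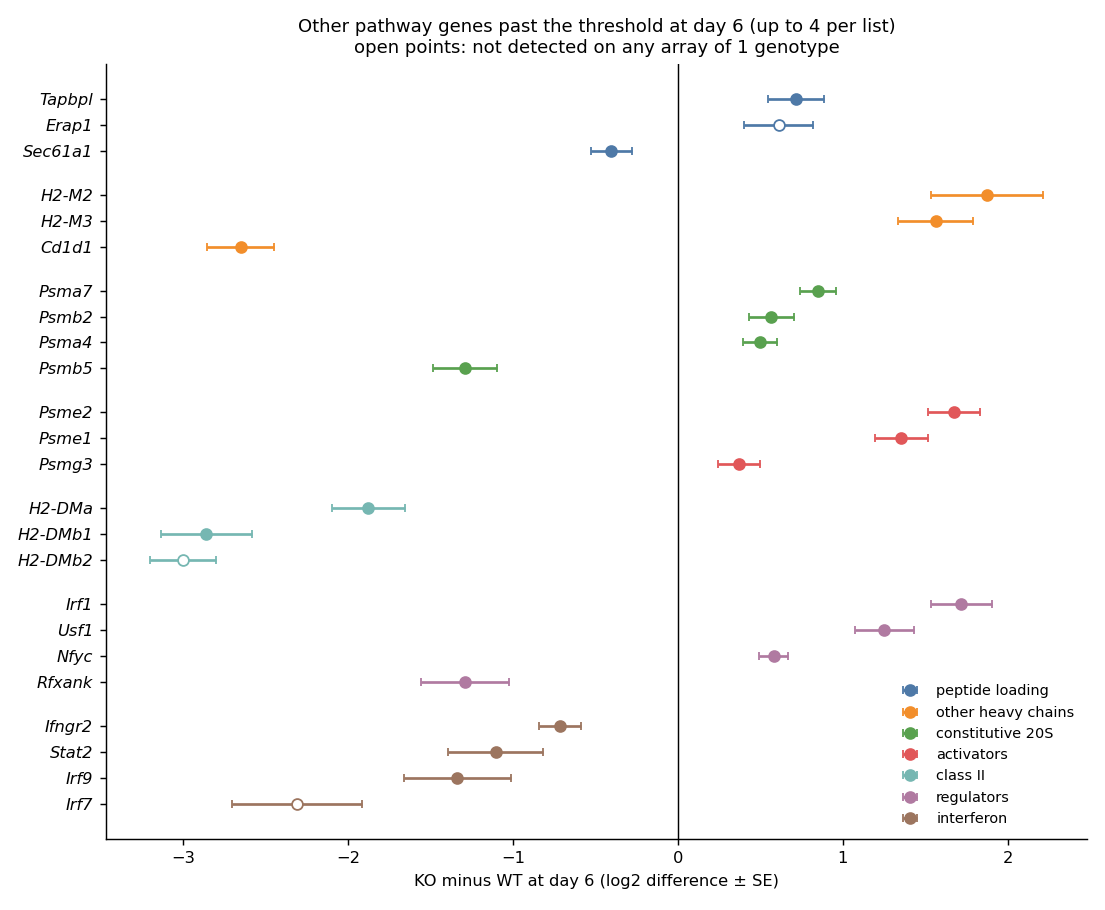
Difference between genotypes at day 6, KO minus WT (log2 ± SE, horizontal axis), of the other pathway genes past the threshold, up to 4 of each list by size of difference, coloured by list. Irf1, Psme1 and Psme2 lie right of 0 by more than 1 unit, and Irf7, Irf9, Stat2, Psmb5, Cd1d1 and the H2-DM genes left of it by more than 1 unit; open points are fitted values against a genotype without detected signal.

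Regulators of the pathway did not move as one. Of 13 regulators of class I transcription tested, 5 were higher and 2 were lower in KO cells at day 6, with a median of 0.37. Irf1, an interferon-induced activator of Tap1, Psmb9 and class I genes, had 12.21, 12.85, 12.76 and 12.02 in KO cells, against 10.65, 10.19, 11.03 and 11.08 in WT cells. Every KO array lay above every WT array, and the difference was 1.72 ± 0.19 (limma, adjusted p = 4.59e-07, n = 4 arrays each). Usf1, an E-box-binding factor, was higher by 1.25 ± 0.18 (adjusted p = 1.51e-05) and Nfyc, a CCAAT-binding subunit, by 0.58 ± 0.09 (adjusted p = 4.32e-05). Rfxank, a subunit of the RFX complex, was lower by -1.29 ± 0.27 (adjusted p = 0.000822). Nlrc5, the class I transactivator, was detected on 0 of 4 KO and 1 of 4 WT arrays and did not pass (adjusted p = 0.266); it was named after its values had been seen.

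Of 11 interferon receptor and signalling genes tested, 2 were higher and 6 were lower in KO cells at day 6, with a median of -0.59. Irf7, which amplifies type I interferon, was undetected in KO cells and at least 4.27-fold lower than in WT cells (limma, adjusted p = 0.000128, n = 4 arrays each). Irf9 and Stat2, the partners that carry the type I signal to the nucleus, were lower by -1.34 ± 0.32 (adjusted p = 0.00331) and -1.11 ± 0.29 (adjusted p = 0.00601). Ifngr2, a chain of the interferon-gamma receptor, was lower by -0.72 ± 0.13 (adjusted p = 0.000171).

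Markers of the labelled cell type were uneven between genotypes. Of 11 fibroblast markers, all tested, 2 were higher and 5 were lower in KO cells at day 6. Col1a2 was undetected in KO cells and at least 16.99-fold lower, Thy1 at least 3.15-fold lower, Pdgfra lower by -1.29 ± 0.24 and Lum higher by 2.74 ± 0.37 (limma, adjusted p of 3.51e-12, 7.37e-06, 0.000274 and 9.08e-06, in that order). Their summed linear signal was 16785 to 43522 in KO cells and 20486 to 46367 in WT cells. Of the other lists, lymphocyte (4 tested) and endothelial (3 tested) markers had 0 past the threshold at day 6, and of 6 keratinocyte markers tested Ivl was at least 6.38-fold lower in KO cells (adjusted p = 5.76e-08). At day 0, before co-culture, Ivl had 4.60 in KO cells and 7.08 in WT cells, with 1 array each and no test. Whether these differences of the lines have a part in the members' differences was not tested.

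Most members varied together across the 18 arrays once each genotype's mean had been taken off. Psmb9 followed Tap2 (r = 0.90) and Psmb8 (r = 0.90), B2m followed H2-D1 (r = 0.90) and Psmb8 (r = 0.88), and Tap1 followed Psmb8 (r = 0.85). Cd74 followed the others least, with r from 0.04 against Tapbp to 0.52 against Psmb9. These values describe arrays that share days, processing sets and the low day 0 arrays. By the same measure, over 7452 genes detected on all 18 arrays, the genes most like Tap1 were Irf1 (r = 0.91), Dtx3l (0.88), Isg15 (0.88), Stat2 (0.88) and Ddx58 (0.86). Those most like Psmb8 were Lgals3bp (r = 0.95), H2-Q5 (0.95), Irf1 (0.94), Isg15 (0.94) and Ifit3 (0.93). Those most like H2-K1 were Gm2a (r = 0.93), Tnfsfm13 (0.92), Flot1 (0.91), Parp3 (0.91) and Bscl2 (0.91). Irf1 stood among the 5 most alike for both Tap1 and Psmb8, although the difference between genotypes was positive for Irf1 and Psmb8 and negative for Tap1.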

How the data were processed

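For 45121 probes on 18 arrays the authors deposited 2 columns an array, per the file headers: the mean bead intensity and a detection p-value. The detection p-value was 1-sided on 12 arrays and 2-sided on 6, which were converted. Their deposited log2 values, which lay within 0.005 of the log2 of quantile-normalized intensities, served as an alternative. The scanner and software are not given in the sources used here. Genes came from the platform annotation.

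Intensities were corrected and normalized with neqc (offset 16) of limma 3.58.1 in R 4.3.3, and probes were required to be detected (p under 0.01) by 2 or more arrays. A limma model with 1 mean per group (8 groups, eBayes with trend) was fitted to all arrays and adjusted by Benjamini-Hochberg over 26407 probes within each comparison, 2-sided. Where a genotype had no detected signal, its values below each array's lowest detected signal were raised to it for a bound. Such a bound does not include the spread among arrays. Tested on simulated data for the day 6 comparison, 93 of 100 changes of 2 log2 units and 56 of 100 of 1 unit were recovered. There were 6 false calls among the unchanged probes. The simulation changed 200 of 26407 probes and drew noise independently for each probe and array. On the real arrays 7079 probes passed and deviations were shared between arrays, so these rates check the code and do not describe the real comparison.

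The members and lists were chosen with earlier results of these data known. Named genes were all members and, from each list, the up to 4 past the day 6 threshold with the largest differences. Promoters came from RefSeq (GRCm38.p6), the first listed window of each gene, and were compared with Biopython 1.88. Arrays count no reads, so precision rests on how many there are and on the brightness of a probe.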

Additional observations from a re-analysis of the deposited data

Results flagged for a closer look

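A dim H2-D1 probe, ILMN_2608090, stood apart in 1 array of each genotype at day 6. KO replicate 1 had 4.81, above the nearest other KO array at 4.36, and WT replicate 1 had 5.19, above the nearest other WT array at 4.30; the gap took 0.866 of the range of the 4 KO arrays and 0.912 of the range of the 4 WT arrays. Both are the day 6 arrays of the first processing set, and the probe was detected on 4 of 18 arrays. Among 38 groups of 4 arrays examined these were the 2 that stood out, and chance alone marks about 1 in 20. The part of the processing set in this was not tested.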

How the results depend on the processing

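The member count at day 6 was 12 of 19 as reported, and 7 with 1 probe per gene, where fewer probes were tested. With the first processing set alone it was 11 at day 4, 14 at day 2 and 13 for day 2 minus day 0 (5, 7 and 6 over all arrays). With scaling to one median, 1 member probe passed for day 2 minus day 0. For day 2 minus day 0, the calls over all probes also rose in the first set alone, to 2448 and 2566 from 1326 and 1213. Its calls over all probes at day 4 and day 2 are not given here. The higher member counts in the first set therefore cannot be read as particular to the members. The cause of these shifts was not tested. The leading Tapbp probe reversed to -0.23 at day 6 in the first set alone, where each genotype has 1 day 6 array. Single member probes were followed at day 6, over the mean of days 2, 4 and 6 and in the other comparisons they passed, with arrays left out singly entered by their smallest and largest difference. Of these values, 624 stayed on the same side of the threshold, 34 no longer passed, 9 passed that had not and 1 reversed. Scaling to one median also changed the counts of all probes: at day 6, 1851 were higher and 2442 lower (3663 and 3416 with quantiles), and for day 2 minus day 0, 235 and 69 (1326 and 1213 with quantiles). It moved the median of all probes to 0.41 for day 6 minus day 2 in KO cells and 0.30 in WT cells. At day 6 the first set alone gave 2450 and 2265 probes, and for day 2 minus day 0 it gave 2448 and 2566, against 2007 and 2081 with the set as a block. Leaving out 1 array of day 4 or day 2 left as few as 1441 and 1518 probes at day 4 and 1507 and 1585 at day 2.

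With the replicate number as a block, 12 member probes passed at day 6; at day 2, 6 passed, B2m's second probe losing its call (adjusted p = 0.0605). Same-numbered arrays deviated together at day 6 (r of 0.11 to 0.55), the highest r being that of the first-set arrays. Differently numbered arrays of the second set did so too (r of 0.09 to 0.24). Same-numbered arrays did not deviate together at day 2 (0.00) or day 4 (-0.10). The numbers were therefore not taken to pair the samples. Differences near the noise of dim probes, such as that of Tap1, are limited by signal over background and by 1 line per genotype.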
